A study of Mus musculus with 48 samples.

Results

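Maternal separation (MS) was compared with control rearing (C) in the amygdala of Tph2-/- mice, with RNA sequencing libraries from 8 mice of each group. The comparison covered the 5696 genes with a mean of at least 10 counts over these 16 libraries, of 48440 genes in the table. All groups of the study were male C57BL/6 mice of 4 months, offspring of Tph2+/- parents that had, by the study's methods, a C57BL/6N background. The Tph2-/- mice carried inactive copies of the gene in every tissue for life, so rearing was varied in animals that already lacked the enzyme. MS pups were taken from their dams for 3 h per day from postnatal day 2 to postnatal day 15, and C pups were not. Littermates of both other genotypes, Tph2+/+ and Tph2+/-, were reared in the same ways, with 8 mice in each group and 48 mice in all. The mice had passed through behavioral tests before the tissue was taken. Both amygdalae of a mouse were powdered and blended, and 1 library stands for 1 mouse.

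Tph2 encodes the rate-limiting enzyme of serotonin (5-HT) synthesis in neurons of the raphe nuclei, whose fibres reach the amygdala. The amygdala takes part in fear, anxiety and social behavior, and early-life adversity such as MS is known to act on these behaviors and on the stress hormone system. The comparison addressed whether rearing leaves a lasting trace in amygdala RNA when brain 5-HT is missing.

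Libraries were made with a stranded kit, but which strand was counted is not given in the sources used here. Between 93.8% and 97.6% of uniquely placed pairs in the 16 libraries lay on no gene. Several of the rows with the most counts lay opposite to abundant RNAs. Ccdc107, the row with the highest mean count, has exons opposite to Rmrp, an RNA of a ribonuclease. Gm37376 lies opposite to Malat1, an abundant nuclear RNA, and Gm20721 opposite to Gnas, a G protein subunit. ENSMUSG00000092267, which had no annotation here, was also among the 5 rows with the most counts. The lg2FC (log2 of MS over C) of the 4 rows named here lay between -0.12 and 0.02, and none was a differentially expressed gene (DEG). Exons of 3605 members (63.3%) overlapped exons of another gene on the opposite strand, against 17.5% of all genes in the table. For these, counts listed under a gene and counts from its opposite gene cannot be told apart, so the opposite gene is named. In bulk tissue, fewer cells of a type and less RNA per cell cannot be told apart either.

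Counts on genes ranged from 644025 to 1819527 in C (median 798755) and from 609489 to 868451 in MS (median 731639), and 3 counts stood for between 3.69 and 5.39 CPM (counts after scaling by library size). This floor and all intervals cover counting error only. C replicate 1 stood apart, with 49.7% of its counts on Gm42418 (95% Wilson interval 49.6% to 49.7%) and 16.2% on Lars2, which were both left out. Without them the groups did not separate in depth (611412 to 788392 counts in C, 583055 to 840702 in MS, exact two-sided permutation p = 0.959). Tph2 had 0 counts in all 8 C and in 6 MS libraries and 1 count in MS replicates 3 and 5. Tph2 also had 0 counts in every Tph2+/+ and Tph2+/- library, and a count of 0 allows up to 3 counts. The genotype therefore could not be checked from these rows. By animal number, 5 C mice came before and 3 C mice after all MS mice, so that rearing and the range of numbers cannot be told apart.

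Of the 5696 genes, 37 (0.65%) were DEGs between MS and C, which needed an lg2FC beyond 0.2 in either direction and a nominal p under 0.01. Of these, 17 (0.298%) were higher and 20 (0.351%) were lower after MS. No gene passed the Benjamini-Hochberg adjustment in edgeR, where the smallest adjusted p was 0.893 and the smallest nominal p was 0.000417. A nominal p below 0.05 was reached by 266 genes (4.67%), and DESeq2 also gave 0 genes past the adjustment, with and without a prior. For no gene (0.0%) did all 8 MS values lie apart from all 8 C values. The lg2FC of 4256 genes (74.7%) was smaller than 0.2 in size, and the middle 90% lay between -0.34 and 0.28. The median standard error (SE) was 0.17. The number of DEGs was 22 without MS replicate 2, 60 without C replicate 2 or without MS replicate 5, and 76 without MS replicate 7. By direction, 9 were higher without MS replicate 2, 26 without C replicate 3 and 35 without MS replicate 7. With all 32233 genes that had at least 1 count in the fit, 313 were DEGs and 10 passed the adjustment, 9 of them members. All 37 DEGs of the comparison had the same adjusted p of 0.893, so they are given as the genes nearest to a difference and not as established changes. On simulated counts for these groups and genes, 68 of 100 genes changed 1.5-fold and 96 of 100 changed 2-fold were called, of which 48 and 90 passed the adjustment, beside 59 of 5496 unchanged genes called. The simulated spread was set by abundance alone, without trends within libraries or outlying libraries, and all changed genes changed at once. The rates therefore need not hold for these libraries.

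**Figure D1:**
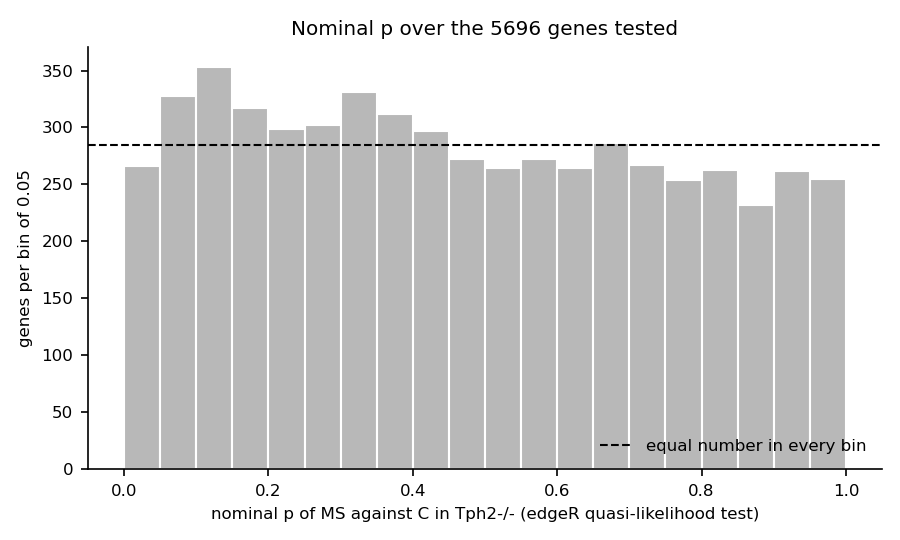
Number of genes (vertical axis) in each bin of 0.05 of the nominal p of MS against C in Tph2-/- (horizontal axis), for the 5696 genes tested, with a dashed line at an equal number in every bin. The first bin held 266 genes, fewer than the next 3 bins with 328, 353 and 317, and the last bin held 255.

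The 17 higher DEGs, among them Fam219b, Atf5, Endog and Mmp2, had lg2FC from 0.20 to 0.70. Fam219b (ENSMUSG00000032305, chromosome 9 from 57537528 to 57543184, plus strand), a protein-coding gene, had the smallest nominal p. It ranged from 38.8 to 60.0 CPM in C (median 48.6) and from 47.2 to 86.7 CPM in MS (median 70.6). In 7 of 8 MS mice it was above the highest C mouse (lg2FC 0.51 ± 0.14 SE), and the groups overlapped through the remaining one. Its first exon overlaps Gm26631, a noncoding transcript of the opposite strand, over 102 bases. Gm26631 was far more abundant, with a mean of 749 counts against 40.8 counts of Fam219b, and its lg2FC was 0.03 ± 0.09.

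The RefSeq promoter window of Fam219b (GRCm38.p6, plus strand, from 250 bases before to 50 bases after the start) is shown because exons of genes on both strands meet in it. Capitals mark the 50 bases that lie in exons of both Fam219b and Gm26631.
Fam219b, chr9:57537278-57537577: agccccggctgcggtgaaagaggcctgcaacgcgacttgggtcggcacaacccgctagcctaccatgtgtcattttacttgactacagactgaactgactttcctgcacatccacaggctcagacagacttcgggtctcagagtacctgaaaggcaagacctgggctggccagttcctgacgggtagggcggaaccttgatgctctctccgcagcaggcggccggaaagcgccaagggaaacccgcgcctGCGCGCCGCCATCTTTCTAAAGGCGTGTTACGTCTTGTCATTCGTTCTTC
It is 58.3% GC and holds 21 CG dinucleotides, and 24.8% of 32851 RefSeq windows of the same length hold at least as many.

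Atf5 encodes a basic leucine zipper factor of cellular stress responses. It ranged from 20.2 to 41.5 CPM in C (median 26.1) and from 27.8 to 49.4 CPM in MS (median 44.7), and 5 MS mice lay above every C mouse (lg2FC 0.53 ± 0.16). Its exons overlap those of Il4i1, an amino acid oxidase, and Nup62, a nuclear pore protein. Il4i1 had the smallest p among the genes opposite to a DEG (nominal edgeR p of 0.066), with a lg2FC of 0.38 ± 0.20, and Nup62 had a mean of 0.4375 counts. Endog, a nuclease of mitochondria, ranged from 147 to 193 CPM in C (median 174) and from 158.1 to 264 CPM in MS (median 206), a lg2FC of 0.26 ± 0.09. Spout1, opposite to Endog, differed by 0.05. Mmp2, gelatinase A, which degrades extracellular matrix, was the only higher DEG without opposite exons. It ranged from 10.1 to 19.002 CPM in C (median 15.8) and from 11.3 to 31.4 CPM in MS (median 23.0), which are 6 to 12 and 8 to 23 counts. Its lg2FC was 0.59 ± 0.20, and 6 MS mice lay above the highest C mouse. Prrg2, a membrane protein with a Gla domain, opposite to Nosip, ranged from 64.1 to 107.4 CPM in C (median 75.3) and from 92.1 to 120 CPM in MS (median 101), and all MS mice lay in the upper part of the joint range (lg2FC 0.36 ± 0.11).

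Of the named higher DEGs, 4 are short or antisense transcripts. Gm29587, opposite to Syt16 of the synaptotagmin family, ranged from 545 to 678 CPM in C (median 603) and from 607 to 932 CPM in MS (median 701), a lg2FC of 0.25 ± 0.07. Gm37539 lies opposite to Qsox1, a sulfhydryl oxidase, and ranged from 38.8 to 83.2 CPM in C (median 60.5) and from 57.5 to 91.8 CPM in MS (median 83.0), a lg2FC of 0.38 ± 0.12. The row of Mir1901, opposite to Cables1, which links Cdk5 and Abl kinases, ranged from 27.9 to 66.2 CPM in C (median 46.5) and from 46.7 to 88.1 CPM in MS (median 65.6), a lg2FC of 0.51 ± 0.15. In all 3 rows the highest MS mouse exceeded every C mouse and the groups overlapped. A total RNA library does not show whether counts on a miRNA row come from the mature miRNA. The row 4933417D19Rik, opposite to Spata2l and Vps9d1, had a lg2FC of 0.35 ± 0.12, with a median of 86.0 CPM in C and 126 CPM in MS. In 1700123O20Rik, a protein-coding gene opposite to the splicing-related gene Acin1, 7 MS mice lay above the highest and 1 below the lowest C mouse (67.8 to 81.3 CPM in C, 56.4 to 118 CPM in MS, lg2FC 0.35 ± 0.11).

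Gm37539 (ENSMUSG00000102299) is a single exon of 235 bases and is shown whole, since it overlaps Qsox1 over only part of its length. The sequence is from GRCm38, plus strand, with the 61 bases that overlap the exon of Qsox1 (chr1:155789298-155789358) in capitals.
Gm37539, chr1:155789124-155789358: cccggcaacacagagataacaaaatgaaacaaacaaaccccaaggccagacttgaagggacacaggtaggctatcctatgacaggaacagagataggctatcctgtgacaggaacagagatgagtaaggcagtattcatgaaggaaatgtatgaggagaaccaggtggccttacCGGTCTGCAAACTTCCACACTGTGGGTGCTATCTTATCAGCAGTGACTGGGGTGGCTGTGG
Qsox1 itself had a mean of 0.4375 counts, against 47.4 counts on Gm37539.

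The remaining 7 higher DEGs were Gm17178 (opposite to Aspscr1, lg2FC 0.25), Pomgnt1, an enzyme of dystroglycan glycosylation (opposite to Lurap1, 0.30), 0610038B21Rik (opposite to Arhgap10, 0.60), Cryz, a quinone reductase (opposite to Tyw3, 0.49), Serhl (opposite to Rrp7a and Gm17206, 0.20), Abhd1 (opposite to Preb, 0.24) and Gm43352 (opposite to Lef1, 0.70). Serhl had the highest mean count of all DEGs (497 counts), and Tmtc1, a lower DEG, had the lowest (10.5 counts).

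The 20 lower DEGs, among them Nup43, G3bp2, Anp32a and Rapgef6, had lg2FC from -0.86 to -0.24 apart from Parpbp. Nup43 (ENSMUSG00000040034, chromosome 10 from 7667503 to 7678881, plus strand) encodes a subunit of the nuclear pore complex. It ranged from 74.6 to 109 CPM in C (median 92.6) and from 45.2 to 81.7 CPM in MS (median 69.9). In 6 of 8 C mice it was above the highest MS mouse, and its lg2FC was -0.43 ± 0.12 (nominal edgeR p of 0.000456). It has no opposite exons.

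G3bp2 (ENSMUSG00000029405, chromosome 5 from 92052146 to 92083719, minus strand) encodes an RNA-binding protein of stress granules. It ranged from 18.5 to 38.2 CPM in C (median 31.6) and from 10.1 to 25.5 CPM in MS (median 19.99), which are 11 to 28 and 7 to 20 counts. Again 6 C mice lay above the highest MS mouse (lg2FC -0.64 ± 0.17, nominal edgeR p of 0.000488). Its exons overlap 2050 bases of Gm26582, a lincRNA with a mean of 3500 counts, whose lg2FC was -0.02 ± 0.06.

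One stretch of this overlap that codes for protein in G3bp2 is shown (GRCm38, minus strand, 119 bases, 38.7% GC), because reads from it can come from either gene.
G3bp2, chr5:92055384-92055502: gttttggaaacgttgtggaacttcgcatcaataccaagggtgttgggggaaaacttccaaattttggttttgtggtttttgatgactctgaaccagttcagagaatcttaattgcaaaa

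Anp32a encodes an acidic nuclear phosphoprotein. It ranged from 31.9 to 55.8 CPM in C (median 44.9) and from 16.2 to 43.5 CPM in MS (median 27.0), and 6 MS mice lay below every C mouse (lg2FC -0.61 ± 0.19). Rapgef6, an exchange factor for Rap proteins, ranged from 17.3 to 33.7 CPM in C (median 26.4) and from 10.8 to 29.6 CPM in MS (median 15.4). Apart from MS replicate 7 at 29.6 CPM, its MS mice all lay below the C range (lg2FC -0.68 ± 0.23). Zfp704, a zinc finger gene, ranged from 16.7 to 44.1 CPM in C (median 34.6) and from 14.1 to 29.6 CPM in MS (median 22.4), a lg2FC of -0.60 ± 0.20. The lincRNA C030034L19Rik on the other strand of Zfp704 had a mean of 425 counts and a lg2FC of -0.02.

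Other lower DEGs with small p do not code for proteins. Nell1os ranged from 26.5 to 39.4 CPM in C (median 29.5) and from 11.6 to 32.4 CPM in MS (median 18.6), with 7 MS mice below the C range (lg2FC -0.59 ± 0.19). The processed pseudogenes Gm44853 and Gm17194, whose counts may be split with their parent genes and are therefore uncertain, had lg2FC of -0.48 ± 0.15 and -0.56 ± 0.18. Gm13814, a lincRNA opposite to Gm13817, ranged from 29.3 to 55.2 CPM in C (median 37.3) and from 17.2 to 34.8 CPM in MS (median 27.9), a lg2FC of -0.56 ± 0.19. In each of these 4 rows the median of MS lay below the median of C and the groups overlapped.

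Of the 10 remaining lower DEGs, Topbp1, of the replication checkpoint, had a lg2FC of -0.67, Abraxas1, of the BRCA1-A complex, -0.47, and Supt16, a subunit of the histone chaperone FACT, -0.64. Supt16 lies opposite to Rpgrip1, which had a mean of 418 counts and a lg2FC of -0.005. Hnrnpa2b1, an RNA-binding protein, had -0.86, Krr1, a ribosome assembly factor opposite to Glipr1, -0.45, and Ppp2r3a, a subunit of protein phosphatase PP2A opposite to Gm37621, -0.24. Tmtc1, an O-mannosyltransferase, had -0.73, and 7 C mice lay above its highest MS mouse at 14.1 CPM. Ammecr1 had -0.62, Mir133a-1hg -0.40 and ENSMUSG00000085435, without annotation here, -0.63. No theme was tested for these DEGs. At the edge of the threshold, Hnrnpa2b1 (nominal p of 0.0095) and Gm43352 (0.0098) were just inside and Tpd52l2 (0.0101) and Eno4 (0.0102) just outside.

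**Figure D2:**
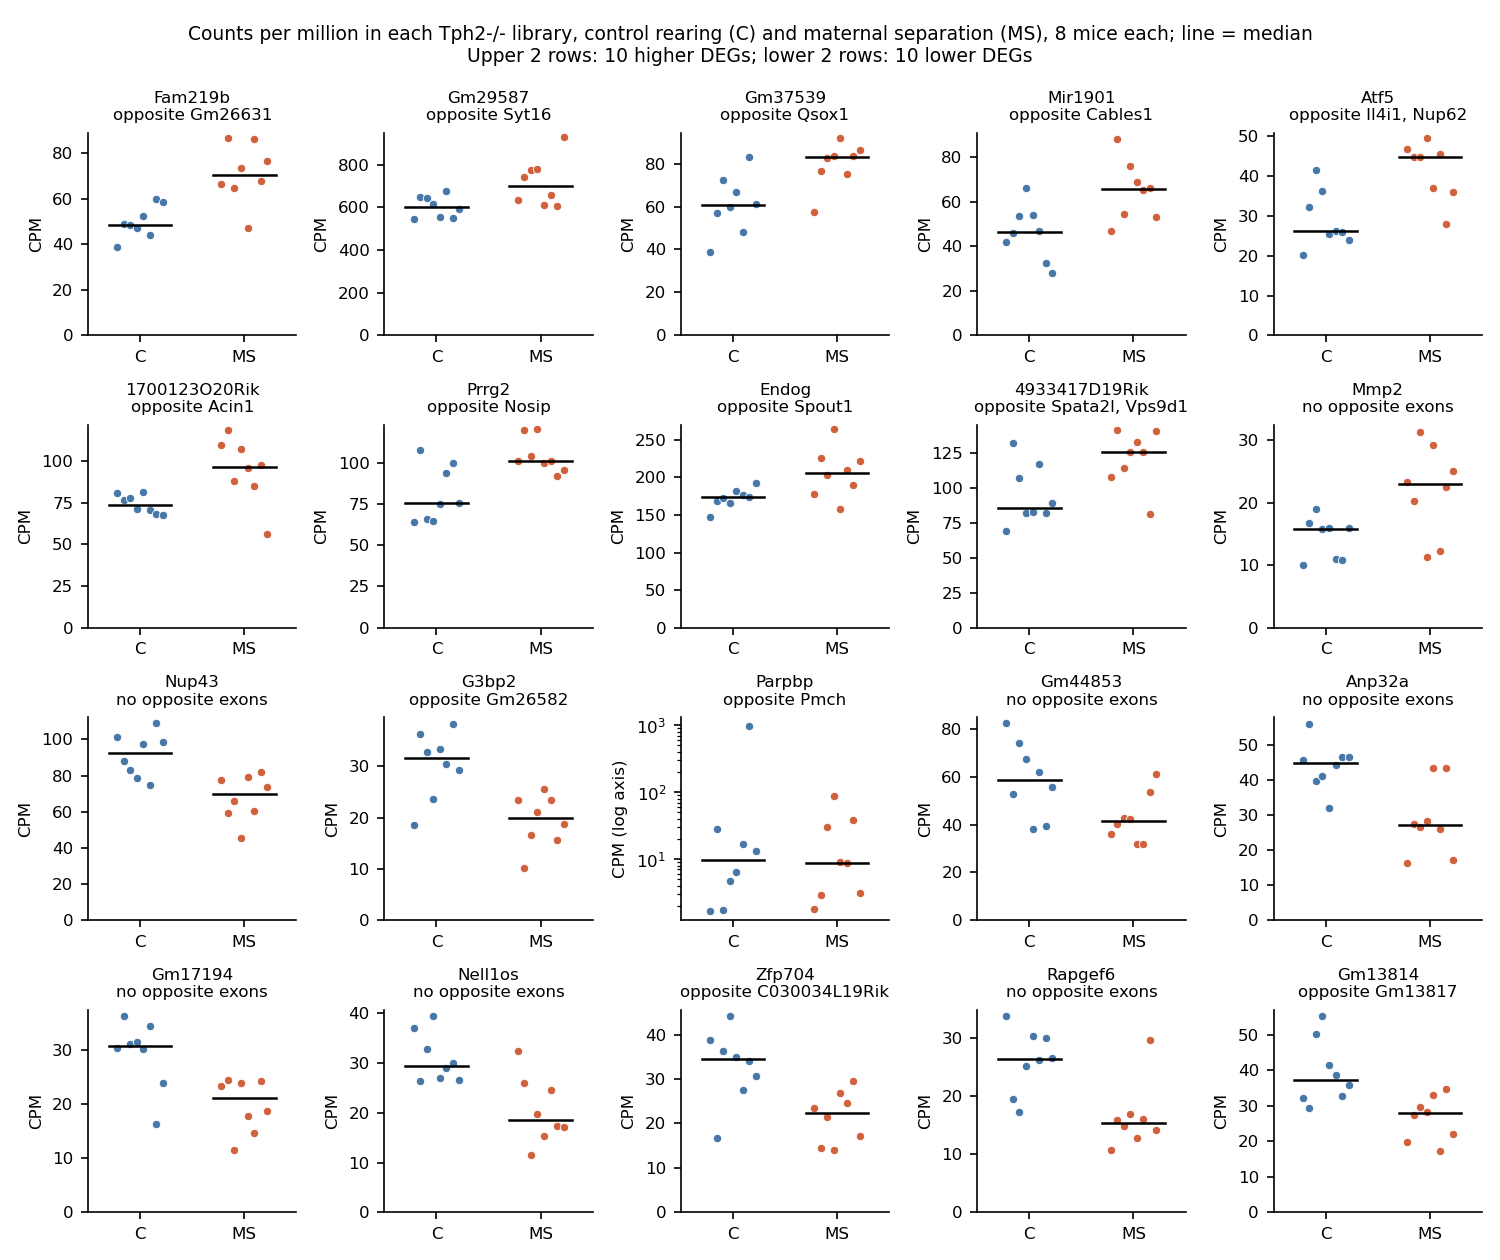
CPM (vertical axes, from 0 except a log axis for Parpbp) of the 10 higher and the 10 lower DEGs with the smallest p in each of the 8 C and 8 MS mice of Tph2-/- (points), with group medians (lines) and the gene on the opposite strand. In Fam219b 7 MS mice lie above the highest C mouse, in Nup43 6 C mice lie above the highest MS mouse, and the groups overlap in every panel.

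Parpbp had the lowest lg2FC of the DEGs, -2.54 ± 0.78 (nominal edgeR p of 0.0012), and this value rested on 1 mouse. The gene encodes an inhibitor of homologous recombination, and its exons lie for 435 bases opposite to Pmch, the precursor of melanin-concentrating hormone, a peptide of the lateral hypothalamus. C replicate 7 had 962 CPM (705 counts), while the other C mice had between 1.69 and 27.9 CPM and the MS mice between 1.80 and 87.6 CPM, with medians of 9.83 and 8.77 CPM. Without C replicate 7 the lg2FC of Parpbp was 1.04 (nominal edgeR p of 0.096), and DESeq2 gave 1.18 without and 0.16 with a prior, so the direction is not settled. Pmch itself had a mean of 6.31 counts, under the minimum. The same mouse had the highest value of Gigyf2 (1095 CPM, 803 counts), which lies opposite to Kcnj13, a channel of the choroid plexus. Gigyf2 ranged from 53.6 to 1095 CPM in C and from 41.9 to 887 CPM in MS, a lg2FC of -0.05 ± 0.56. The part of dissection borders in these values was not tested.

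The share of DEGs with opposite exons by direction is a description without a test, and without MS replicates 2 and 4 it was 41.7% of the higher and 50.0% of the lower DEGs. With all 32233 genes in the fit it was 52.6% and 22.1%, beside 24.9% of these 32233 genes. In all mice, among the 17 higher DEGs, 16 (94.1%) had exons opposite to another gene, among the 20 lower ones 7, and among all members 63.3%. The median GC content of the longest transcript was 54.7% in the higher DEGs, 43.9% in the lower DEGs and 48.7% in all members. Of 26 genes opposite to 23 DEGs, 15 were members, 11 of these 15 had the sign of the DEG, and 0 were DEGs. The share of equal signs over all opposite pairs is not given here, so 11 of 15 cannot be read as a shared change. The mean counts of the 26 opposite genes ranged from 0.4375 to 3500.

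Over 5 classes of equal size, from the lowest to the highest GC content, the median lg2FC of MS against C was -0.08, -0.04, 0.00, 0.04 and 0.08, and the share of genes with a lg2FC above 0 was 31.1%, 40.3%, 50.2%, 60.2% and 68.6%. Genes with opposite exons had a median lg2FC of 0.03 (57.3% above 0) and genes without them -0.06 (37.8% above 0). Within the class of highest GC content, 73.8% of the genes with and 49.4% of the genes without opposite exons were above 0, and within the lowest class 36.4% and 25.5%. These shares are descriptions over genes that share the same 16 libraries, and no test was made on them.

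**Figure D3:**
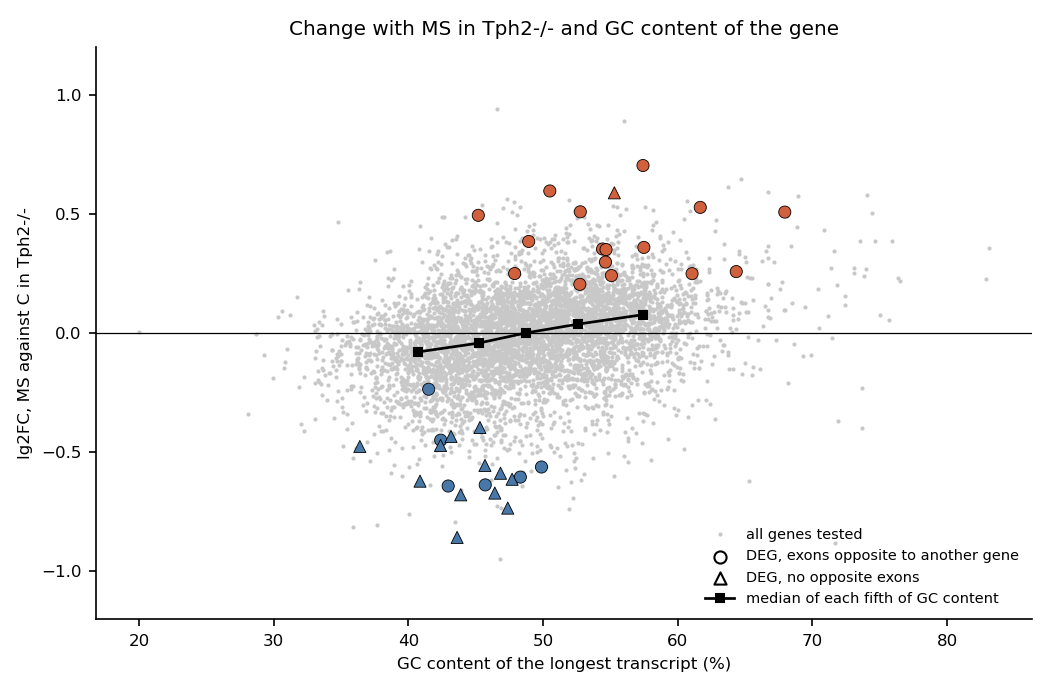
lg2FC of MS against C in Tph2-/- (vertical axis) by the GC content of the longest transcript in percent (horizontal axis), with all genes in grey, higher DEGs in red, lower DEGs in blue, circles for exons opposite to another gene and triangles for none. Squares mark the median of each of 5 GC classes, from -0.08 to 0.08, and 4 genes beyond 1.2 in size, 1 of them a DEG, and 1 DEG without a GC value are not drawn.

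Over libraries, the trend did not separate the groups. The slope of log2 CPM on GC content ranged from -0.208 to 0.0682 per 10 points of GC in C (median -0.091) and from -0.218 to 0.286 in MS (median -0.037), with an exact two-sided permutation p of 0.272. MS replicates 2 and 4 had the steepest slopes, 0.286 and 0.276, and MS replicate 7 the lowest, so MS mice spanned both ends. With a GC trend removed from each library, an alternative chosen after seeing the data, there were 42 DEGs, 27 of them shared, and 19 of 21 higher and 7 of 21 lower ones had opposite exons, with median GC contents of 50.5% and 47.1%. Without MS replicates 2 and 4, also chosen after seeing the data, there were 32 DEGs, of which 13 were shared. Opposite exons were then found in 5 of 12 higher and 10 of 20 lower DEGs.

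**Figure D4:**
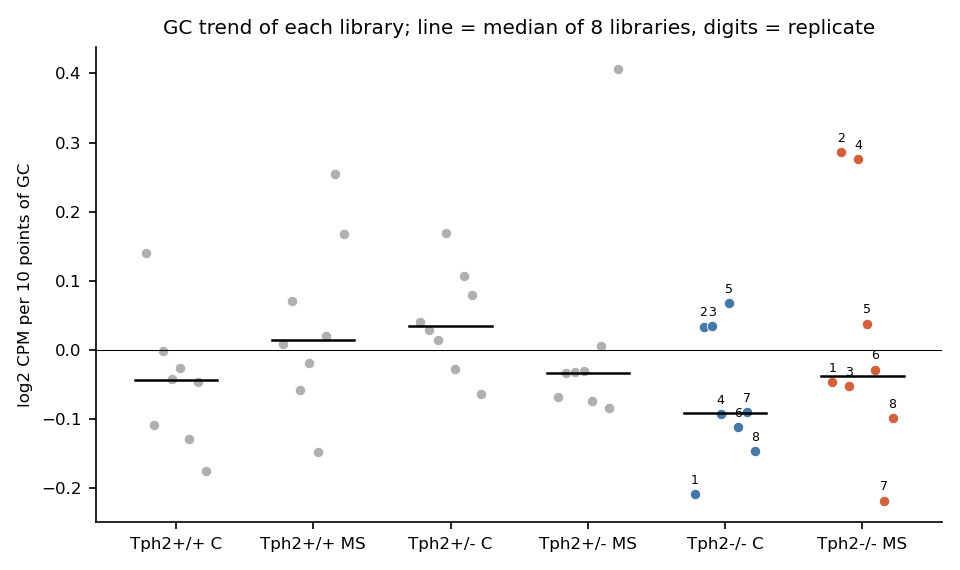
Slope of log2 CPM on the GC content of the gene, per 10 points of GC (vertical axis), in each of the 48 libraries by group (horizontal axis), with lines at group medians and replicate numbers for Tph2-/-. MS replicates 2 and 4 of Tph2-/- lie at 0.286 and 0.276, above the highest C library at 0.0682, replicate 7 lies at -0.218, below the lowest C library, and the other 5 MS libraries lie within the C range.

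Fam219b, Nup43 and G3bp2 remained DEGs in all 16 fits that left out 1 mouse and in all 12 other settings. Their lg2FC ranged from 0.46 to 0.58 for Fam219b, from -0.47 to -0.37 for Nup43 and from -0.72 to -0.54 for G3bp2 over the fits without 1 mouse. These were the genes with the smallest p, and the refits reuse mostly the same mice, so passing them is no independent support. Nell1os and Gm13814 remained in all 12 other settings and in 15 and 13 of the 16. Atf5 and Mir1901 were lost without the last 3 C mice by animal number and without MS replicates 2 and 4. Mmp2 was lost in 5 of the 12 settings, both forms of DESeq2 included, and passed in 10 of the 16 fits. Endog passed in 13 of the 16 fits and in 8 of the 12 settings, 4933417D19Rik in 9 and 9, and 1700123O20Rik in 15 and 9. Of the 17 DEGs that are not among the named 20, none passed in more than 13 of the 16 fits.

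The lists of pathway genes were thinly covered, and with 0.65% of all genes called, a count of 0 DEGs in them is near the background. Of 25 genes of the 5-HT system 3 were members and 0 were DEGs. Slc18a2, the vesicular monoamine transporter, ranged from 150 to 310 CPM in C (median 252) and from 114 to 346 CPM in MS (median 251), a lg2FC of -0.06 ± 0.16, and the groups lay over each other. The receptors Htr1b and Htr2b differed by 0.07 ± 0.15 and -0.07 ± 0.09. Htr1b lies opposite to D430036J16Rik (-0.06), Htr2b opposite to Psmd1 and Slc18a2 opposite to Gm29261. Gm42413, opposite to Qdpr, which recycles the cofactor of tryptophan hydroxylase, differed by 0.06.

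Of 28 genes of stress hormones and the glucocorticoid response 3 were members and 0 were DEGs. Nr3c2, the mineralocorticoid receptor, opposite to Gm10649, ranged from 17.3 to 52.5 CPM in C and from 20.4 to 43.1 CPM in MS, a lg2FC of 0.26 ± 0.23. Plin4, a glucocorticoid target that coats lipid droplets, opposite to Hdgfl2, differed by -0.15 and Sult1a1 by -0.04, and Sgf29 opposite to Sult1a1 by 0.33. Among 20 immediate early genes 2 were members, Junb (opposite to Prdx2, lg2FC 0.07 ± 0.08) and Jund (0.30 ± 0.37), both subunits of AP-1. The rows opposite to Jun, Jund and Bdnf, which are Junos, Gm11175 and Gm45346, differed by 0.14, 0.20 and -0.30. None of these rows was a DEG.

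Of 28 neuropeptide genes 3 were members. Scg2, a secretogranin of dense core vesicles, had a median of 25.9 CPM in C (13.8 to 38.8) and 10.4 CPM in MS (7.19 to 34.8), a lg2FC of -0.95 ± 0.37 (nominal edgeR p of 0.012), which missed the threshold. Vgf, another secreted granule protein, differed by -0.15 and Agrp, opposite to Ctcf, by 0.04. A830012C17Rik, opposite to Penk, the enkephalin precursor, differed by 0.03 ± 0.26, with 98.2 to 268 CPM in C and 82.5 to 459 CPM in MS. Parpbp, opposite to Pmch, was the only DEG of this list.

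Of 36 genes of GABA and glutamate receptors 13 were members and 0 were DEGs. In 10 of the 13 the lg2FC was below 0, with a median of -0.19 beside a median of 0.00 over all genes tested. Of the 13, 8 had no opposite exons, and over all genes without them the median was -0.06, with 37.8% above 0. Gabra4, opposite to Gabrb1, had the smallest p (lg2FC -0.48 ± 0.24, nominal edgeR p of 0.044), with 6.65 to 26.5 CPM in C and 7.06 to 19.1 CPM in MS. The AMPA receptor subunits Gria1 and Gria2 had -0.58 ± 0.33 and -0.33 ± 0.26, and the NMDA receptor subunits Grin2a and Grin2b -0.27 and -0.11, the latter opposite to Gm14329, Gm22892 and Gm26653. Rows opposite to such genes had a lg2FC above 0 in 8 of 11 cases, with a median of 0.05, beside 57.3% above 0 over all genes with opposite exons, and Gabra4 and Gabrb1 counted on both sides. Among these was Grin1os, opposite to Grin1 (1934 to 2450 CPM in C, 1975 to 2593 CPM in MS, lg2FC 0.03 ± 0.08).

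Of 15 mitochondrial genome genes 9 were members, 8 of them with a lg2FC below 0 and 0 DEGs, while 50.1% of all genes tested and 31.1% of those in the lowest class of GC content, which held all 9, lay above 0. mt-Rnr2, the large ribosomal RNA, ranged from 466 to 8392 CPM in C (median 1143) and from 196 to 1277 CPM in MS (median 669), a lg2FC of -1.38 ± 0.85. mt-Cytb and mt-Co1 differed by -0.02 and 0.01, and mt-Ts1, opposite to mt-Co1, by 0.08. Of 18 genes of DNA methylation 2 were members, Tdg, a glycosylase of demethylation (opposite to Glt8d2, 0.13 ± 0.14), and Gadd45a (opposite to E230016M11Rik, 0.05 ± 0.18). Dnmt3aos, opposite to the methyltransferase Dnmt3a, differed by 0.13 and Tmem255a, opposite to Zbtb33, by -0.30, and none was a DEG. Besides Parpbp, the genes with a lg2FC above 1 in size were mt-Rnr2, Mir6236 (-1.68) and ENSMUSG00000089855 (-2.57), named after their values were seen, and no DEG was among them. With all 32233 genes in the fit, these 3 and Parpbp were among the 10 genes past the adjustment. That fit was not repeated without single mice, and the value of Parpbp rested on 1 mouse.

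The markers of cell types and regions were thinly covered. None of 18 amygdala markers was a member on its own row, so the labelled tissue could not be checked from them. Gpr39, opposite to the list gene Lypd1, ranged from 4826 to 7257 CPM in C and from 4897 to 11176 CPM in MS (lg2FC 0.19 ± 0.12, and 0.048 without MS replicate 8). Of 7 blood genes 6 had 0 counts in all 16 libraries, and Alas2, a heme synthesis enzyme opposite to Apex2 and Mir3620, differed by -0.15 ± 0.12. The oligodendrocyte gene Cnp, opposite to Dnajc7, differed by 0.05 ± 0.06, the astrocyte row Gm13872, opposite to the glutamate transporter Slc1a2, by 0.10 ± 0.07, the microglial receptor Csf1r, opposite to Hmgxb3, by 0.07 ± 0.11 and the endothelial receptor Tek by 0.05 ± 0.12. On their own rows the astrocyte genes Slc1a2 and S100b differed by -0.32 ± 0.30 and 0.15 ± 0.20. The cortical genes Bhlhe22 and Lmo3 differed by 0.17 ± 0.22 and -0.28 ± 0.24. Of these lists only the rows opposite to Lef1 and Pmch were DEGs. 1700003D09Rik, opposite to the striatal phosphoprotein gene Ppp1r1b, ranged from 175 to 542 CPM in C (median 266) and from 243 to 506 CPM in MS (median 389), a lg2FC of 0.37 ± 0.16. Rarb, a retinoic acid receptor of the striatum list, opposite to Top2b and Gm48162, differed by -0.18 ± 0.14 and Gm15756, opposite to the astrocyte gene Aldh1l1, by 0.10 ± 0.12.

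Gm43352 (ENSMUSG00000106086, chromosome 3 from 131109026 to 131112090, minus strand) overlaps Lef1, a transcription factor of Wnt signalling expressed in the thalamus, over 1208 exonic bases. It ranged from 5.06 to 30.0 CPM in C (median 12.6) and from 12.5 to 33.2 CPM in MS (median 24.5), which are 3 to 22 and 7 to 26 counts. Its lg2FC of 0.70 ± 0.27 was the highest of the DEGs, and 3 MS mice lay above the highest C mouse. Lef1 on the other strand had a mean of 0.5 counts. The other marker row of the thalamus, Gm15511 opposite to Rora, differed by 0.02 ± 0.15. A coding stretch of Lef1 that Gm43352 overlaps is shown on the strand of Gm43352 (GRCm38, 207 bases, 58.5% GC, with 16 CG dinucleotides).
Gm43352, chr3:131111472-131111678: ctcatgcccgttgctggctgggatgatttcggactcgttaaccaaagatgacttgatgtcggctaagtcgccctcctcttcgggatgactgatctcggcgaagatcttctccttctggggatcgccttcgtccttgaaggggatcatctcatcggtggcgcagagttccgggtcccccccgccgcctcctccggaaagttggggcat

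The effect of MS in Tph2-/- was then compared with the effect in each other genotype by the difference of both effects, which shares the Tph2-/- mice with the comparison above. Against Tph2+/+, 31 genes (0.544%) passed the DEG thresholds and 3.46% had a nominal p below 0.05, but 0 passed the adjustment (smallest edgeR adjusted p 0.9999). Against Tph2+/-, 43 genes (0.755%, of which 27 or 0.474% upwards, with 12 upwards without C replicate 1 and 13 without MS replicate 2) passed the thresholds and 293 (5.14%) had a nominal p below 0.05, and again 0 passed the adjustment (smallest adjusted p 0.365). Within the other genotypes MS gave 152 DEGs (2.67%) in Tph2+/+, 123 of them (2.16%) higher, and 41 (0.72%) in Tph2+/-, 25 of them (0.439%) lower. A nominal p below 0.05 was reached by 445 genes (7.81%) and 216 genes (3.79%), and none passed the adjustment. With all 32233 genes in the fit, 152 genes passed it in Tph2+/+ (113 of them members) and 29 in Tph2+/- (23 of them members). Whether 152 and 41 DEGs differ from the 37 of Tph2-/- was not tested.

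The 37 DEGs were chosen for their values in Tph2-/-, which also enter these differences, so the values below are descriptions and carry no test. The difference from Tph2+/+ had a nominal p below 0.01 for 5 of them, namely Fam219b, Gm44853, Anp32a, Gm17178 and ENSMUSG00000085435. The difference from Tph2+/- did so for 9, which included Nup43, Gm29587 and Mmp2. Fam219b had a lg2FC of -0.05 ± 0.14 in Tph2+/+ and 0.06 ± 0.13 in Tph2+/- beside 0.51 in Tph2-/-, a difference of 0.55 ± 0.19 from Tph2+/+ (edgeR adjusted p 0.9999). Nup43 had -0.00 ± 0.12 and 0.11 ± 0.12 beside -0.43, and its difference from Tph2+/- was -0.54 ± 0.17 (edgeR adjusted p 0.909). G3bp2 had 0.00 ± 0.18 and -0.17 ± 0.18 beside -0.64, with differences of -0.64 ± 0.25 from Tph2+/+ and -0.47 ± 0.25 from Tph2+/-. Gm44853 differed from both, by -0.57 ± 0.21 and by -0.79 ± 0.21. Fam219b medians in C and MS were 60.5 and 60.6 CPM in Tph2+/+, 67.0 and 66.1 in Tph2+/-, 48.6 and 70.6 in Tph2-/-. For Nup43 they were 71.9 and 76.8, 71.7 and 72.9, 92.6 and 69.9. For G3bp2 they were 24.7 and 23.3, 25.0 and 21.7, 31.6 and 19.99. In these genes the Tph2-/- C median lay farther from the other genotypes than the Tph2-/- MS median. In Mmp2 the MS median lay farther (15.0 and 19.4, 18.9 and 17.1, 15.8 and 23.0).

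ENSMUSG00000085435 had opposite signs in Tph2-/- (lg2FC -0.63 ± 0.23) and Tph2+/- (0.73 ± 0.22), a difference of -1.37 ± 0.32 with the smallest p of that comparison (nominal p of 6.4e-05, edgeR adjusted p 0.365), and it was the 1 DEG that Tph2-/- shared with Tph2+/-. The 1 DEG shared with Tph2+/+ was 0610038B21Rik, opposite to Arhgap10, with 0.57 ± 0.21 in Tph2+/+, -0.19 ± 0.19 in Tph2+/- and 0.60 ± 0.21 in Tph2-/-. Each shared gene is 2.70% of the 37 DEGs and 0.658% of those in Tph2+/+ or 2.44% of those in Tph2+/-. Nell1os had -0.43 ± 0.20 in Tph2+/+ and 0.07 ± 0.19 in Tph2+/- beside -0.59, and its difference from Tph2+/+ was -0.16 ± 0.27.

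**Figure D5:**
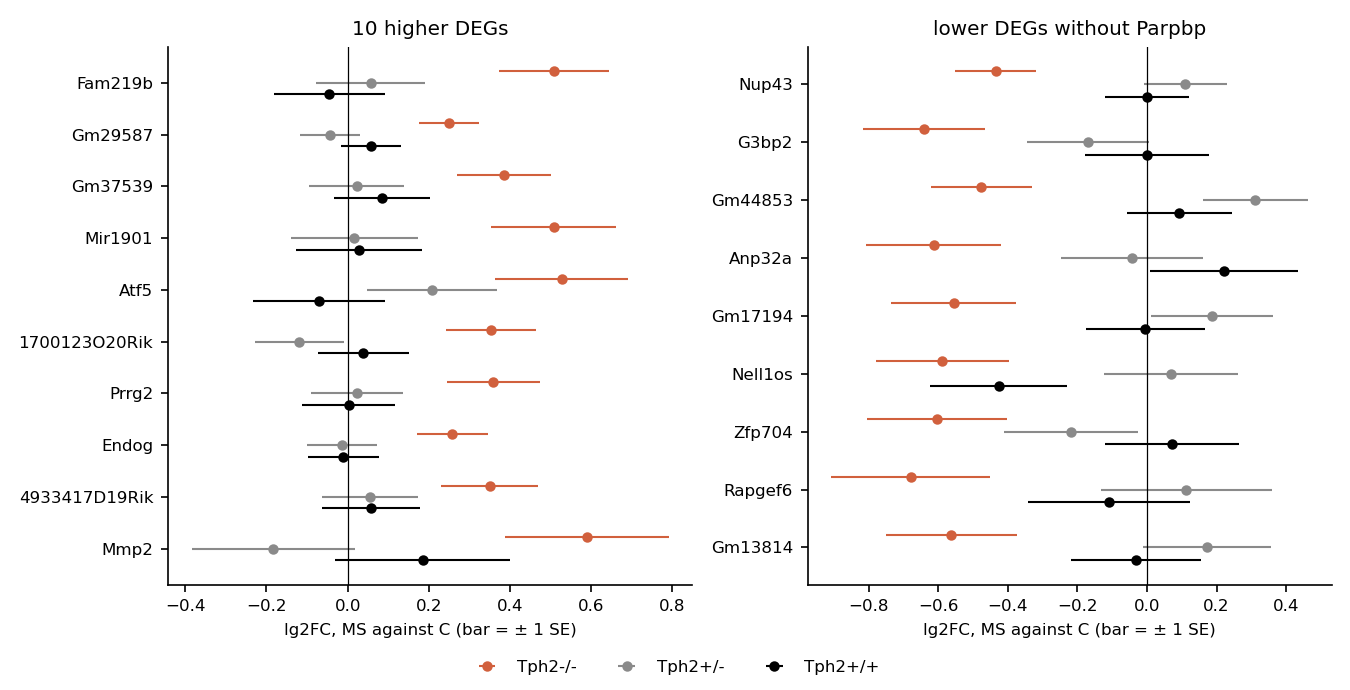
lg2FC of MS against C (horizontal axis, points with bars of 1 SE) in Tph2-/- (red), Tph2+/- (grey) and Tph2+/+ (black) for the 10 higher DEGs and the lower DEGs of Tph2-/- with the smallest p, without Parpbp. The genes were chosen for their values in Tph2-/-, whose points run from 0.25 to 0.59 on the left and from -0.68 to -0.43 on the right, and in the other genotypes most bars cross or lie near 0.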

How the data were processed

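Amygdala RNA of 48 mice was measured, 8 in each group. The authors deposited raw counts of read pairs per Ensembl gene without normalization. The submitters' processing notes name STAR, HTSeq, DESeq2 and GRCm38.p5. The counting strand and the annotation release are not given in the sources used here. The study left out a pair of Tph2-/- MS samples from its DNA methylation data, and all 8 RNA libraries were kept here. Rows for pairs without a gene (5), Lars2 and Gm42418 were left out. Genes with a mean of at least 10 counts over the 16 Tph2-/- libraries were fitted over all 48 libraries with edgeR 4.0.16 in R 4.3.3 (TMM, 1 coefficient per group, quasi-likelihood F test, Benjamini-Hochberg over 5696 genes). CPM are scaled to the counts on these genes after TMM, and SE come from the fitted covariance. The study's thresholds defined a DEG (lg2FC beyond 0.2 in size, nominal p under 0.01). Differences between genotypes were contrasts of contrasts. Library measures were compared with exact two-sided permutation tests over 12870 splits. The fit was tested on simulated data.

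Depth per library was 609489 to 1819527 counts on genes, and a DEG rested on a mean of 10.5 to 497 counts. Replicates were separate mice, since the labels give each an animal number, and none of 56 pairs of libraries agreed within sampling noise (chi-square per degree of freedom 1.67 to 12.1). Exons were placed with GENCODE M21 (48058 of 48440 genes matched), and 22 members had no annotation. Promoters are from RefSeq, GRCm38.p6. Alternatives were DESeq2 1.42.0 with and without a prior, DESeq2 size factors, other filters, Lars2 and Gm42418 kept, a replicate block, fewer samples and a robust fit, besides a GC offset and leaving out MS replicates 2 and 4, chosen after seeing the data. The members and gene lists were chosen with earlier results of these data known. Genes were named by rule, as the 10 higher and 10 lower DEGs of smallest p, Parpbp and Gigyf2, the 5 rows of highest count, DEGs and up to 2 abundant rows of each list, and any opposite genes, and others were named after their values were seen. Some rows that the rule named are not reported here. Summaries used Python 3.11.15, NumPy 2.4.6, pandas 2.3.3, SciPy 1.17.1 and matplotlib 3.10.9.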

Additional observations from a re-analysis of the deposited data

Results flagged for a closer look

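Among 124 groups of 8 libraries, 14 had a highest or lowest library that stood apart by Dixon's criterion, which chance gives in about 1 of 20 groups. For Parpbp these were C replicate 7 at 962 CPM (median 9.83) and MS replicate 4 at 87.6 CPM (median 8.77). C replicate 7 was also apart for Gigyf2 at 1095 CPM (median 246) and Galnt5, opposite to the oligodendrocyte gene Ermn, at 90.0 CPM (median 52.05). MS replicate 7 was apart for Rapgef6 at 29.6 CPM (median 15.4) and A830012C17Rik at 459 CPM (median 175), and MS replicate 8 for Gpr39 at 11176 CPM (median 6271). In C, replicate 1 was apart for Lmo3 at 33.7 CPM (median 18.96) and replicate 4 for Gm15511 at 91.4 CPM (median 60.4).

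C replicate 1 was the farthest library in its group for counts on genes (1819527), the share of pairs on no gene (93.8%), the share on Lars2 (16.2%) and the share on Gm42418 (49.7%). MS replicate 2 was the farthest for the share on Gm42418 within MS, at 0.121%.

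Only genes named by rule were screened here, so other DEGs that pass are not listed. The difference in MS effect between Tph2-/- and Tph2+/+ had a nominal p below 0.01 for Fam219b (difference in lg2FC 0.55), Gm44853 (-0.57), Anp32a (-0.84) and Ctcf, opposite to Agrp (-0.71), each with an edgeR adjusted p of 0.9999. The difference between Tph2-/- and Tph2+/- did so for Gm29587 (0.29), 1700123O20Rik (0.47), Mmp2 (0.77), Nup43 (-0.54), Gm44853 (-0.79), Gm17194 (-0.74) and Gm13814 (-0.73), with adjusted p of 0.813 for Gm44853 and 0.909 for the others. Apart from Ctcf, these genes were chosen for their values in Tph2-/-, which also enter the differences.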

How the results depend on the processing

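No gene passed the edgeR adjustment in any alternative run for the 3 comparisons, except with all genes of at least 1 count in the fit. There, DEGs numbered 313, 334 and 398 for MS in Tph2-/- and its difference from Tph2+/+ and from Tph2+/-, and 10, 14 and 42 genes passed the adjustment. Leaving out each mouse in turn gave 22 to 76, 22 to 41 and 24 to 53 DEGs, with 24 without C replicate 1 and 27 without MS replicate 2 for the last. With only the Tph2-/- libraries in the fit there were 36 DEGs, 9 of them higher and 21 shared, and without the last 3 C mice 50, 17 of them shared. The replicate numbers do not pair the mice, since the correlations of deviations between same-numbered mice ran from -0.262 to 0.227 and 1 of 8 numbers correlated best with its own. With the replicate block there were 43 DEGs, 33 of them shared, and 22 and 39 for the differences. The settings not named here gave 32 to 49 DEGs. Of the genes past the thresholds against Tph2+/+, 14 were upwards, with 9 in both forms of DESeq2 and 22 with the GC offset. Against Tph2+/- there were 27, with 16 without the last 3 C mice and 17 without MS replicates 2 and 4.

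Signs turned as follows, and the cause was not tested. Parpbp was 1.18 and 0.16 in DESeq2 without and with a prior and 1.3003 without the last 3 C mice, which also gave Gigyf2 0.91, ENSMUSG00000092267 0.024, Slc18a2 0.0098, Gm10649 -0.012, Gm11175 -0.039, A830012C17Rik -0.13, Grin1os -0.012, mt-Cytb 0.16, Agrp -0.23, Gm15511 -0.095 and Apex2 0.049. Without MS replicates 2 and 4, Gigyf2 was 0.053, ENSMUSG00000092267 0.089, Gm37376 0.20, Gm20721 -0.070, Gm42413 -0.054, Slc18a2 0.16, Gm10649 -0.11, Gm11175 -0.019, Junb -0.011, Grin1os -0.040, mt-Cytb 0.036, Agrp -0.23, Kcnj13 0.025, Bhlhe22 -0.0050, Csf1r -0.087 and Alas2 0.018. With the GC offset, Grin1os was -0.010, mt-Cytb 0.11 and Agrp -0.015, and with the replicate block A830012C17Rik was -0.040. Ccdc107 was 0.0048 with all genes and 0.0044 with Lars2 and Gm42418 kept. Over the fits without 1 mouse, Parpbp ran from -3.35 to 1.04, Gigyf2 from -0.50 to 0.57, Ccdc107 from -0.074 to 0.080, ENSMUSG00000092267 from -0.057 to 0.037, Gm37376 from -0.21 to 0.031, Gm20721 from -0.031 to 0.045, Slc18a2 from -0.16 to 0.040, Gm10649 from -0.011 to 0.13, A830012C17Rik from -0.28 to 0.15, Grin1os from -0.0066 to 0.052, mt-Ts1 from -0.013 to 0.19, mt-Cytb from -0.052 to 0.042, Agrp from -0.12 to 0.13, Bhlhe22 from -0.0060 to 0.26, Gm15511 from -0.052 to 0.12, Csf1r from -0.0082 to 0.12 and Tek from -0.025 to 0.092. Counts without Lars2 and Gm42418 differed by 2089 (MS minus C) and by -9307 without C replicate 1, and counts on members by 4494 and -6415.

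A DEG rested on a median of 29.3 counts per library, which limits the precision of its lg2FC, and the counting strand is not known. Rearing cannot be told apart from the range of animal numbers.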
